A study of Mus musculus with 8 samples.

Results

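The transcripts described here encode 42 ribosome biogenesis factors, proteins that transcribe ribosomal RNA (rRNA), process and modify it, and assemble it into ribosomal subunits. They were listed by name for these functions, and were matched to the deposited gene table by Ensembl identifier and GENCODE symbol. All 42 were found among the 55385 genes of the table, and all 42 were among the 17445 genes that passed the filter on low counts. The lowest raw count of a member in a library was 646, for *Polr1e*.

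RNA-seq was performed on 8 libraries from R1 mESCs, an established mouse embryonic stem cell line of WT genotype. All cells were grown in N2B27 medium with 2i and Lif, infected with shRNA lentivirus over 2 days and selected with puromycin for 3 days, so that the controls also carried a hairpin vector. The groups were *Eftud2* shRNA1 (3 libraries), *Eftud2* shRNA2 (3 libraries) and nt-shRNA, a hairpin without a target (2 libraries). The hairpins target *Eftud2*, which encodes a GTPase of the spliceosome, at the 3′ end (shRNA1) or in the coding sequence (shRNA2). Each library came from an infected and selected population rather than from a clone, and the libraries of a group are labelled as biological replicates without further detail, so the p-values measure the spread between these libraries. The same nt-shRNA libraries served both knockdown (KD) comparisons, whose values are therefore given side by side.

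Ribosome biogenesis begins in the nucleolus, where RNA polymerase I (Pol I) transcribes a long rRNA precursor. Small nucleolar ribonucleoproteins (snoRNPs) guide the modification of its bases and riboses, the small subunit processome folds and cuts its 5′ part, and a separate set of factors assembles the large subunit. Pluripotent stem cells divide fast and have prominent nucleoli, and treacle and the Pol I subunits *Polr1a*, *Polr1b*, *Polr1c* and *Polr1d* are known for their link to craniofacial development.

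Total counts ran from 19569525 to 29871048 per library, and a count of 3 corresponded to between 0.105 and 0.148 counts per 1000000 (CPM, scaled by TMM factors), far below every member. Transcripts of *Eftud2*, the target, stood at 262 and 256 CPM with nt-shRNA, at 232, 229 and 225 CPM with shRNA1 and at 198, 202 and 235 CPM with shRNA2, which gave log2 fold changes of -0.18 (adjusted p = 0.0514) and -0.29 (adjusted p = 0.00122) in edgeR. These were changes of -11.7% and -18.3%, *Eftud2* was not called with shRNA1, and shRNA2 replicate 3 was above every shRNA1 library, so the name KD follows the labels. For both hairpins the paper reports a larger reduction of *Eftud2* by qPCR, and lower EFTUD2 protein by western blot. A supplementary figure of the paper also plots *Eftud2* KD from its RNA-seq with DESeq2, without values in the text. The labelled cell type was checked with 12 pluripotency markers, which were all tested. Their summed CPM was 7099.9 to 7284 in nt-shRNA, 7143 to 7379 in shRNA1 and 7372 to 7565 in shRNA2 libraries. With shRNA1 6 were called higher and 3 lower, and with shRNA2 7 and 3. Of all genes tested, 13.8% and 17.1% were called with shRNA1, and 27.2% and 28.7% with shRNA2. The sums hide opposite changes. *Nanog* was at 892 and 932 CPM with nt-shRNA and 1565, 1487 and 1593 CPM with shRNA2. *Dppa5a* went from 2512 and 2395 to 1263, 1068 and 1442 CPM. A library stood apart for the members. Replicate 2 of shRNA2 had the highest value of its group in 40 of 42 members, whereas it had the highest value in 36.8% of all genes tested, and the counts over all members are therefore also given without it.

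With shRNA2, most ribosome biogenesis transcripts were more abundant than with nt-shRNA. In edgeR's quasi-likelihood test, with p-values adjusted over all genes tested, 29 of 42 members rose (69.0%) and 2 fell (4.76%), where 27.2% of all genes tested were called higher and 28.7% lower. The median log2 fold change of the members was 0.26 (SD of the 3 library medians 0.0966) against 0.00 for all genes tested, and single members ran from -0.81 (*Dkc1*) to 0.81 (*Heatr1*). Of the members, 6 were called and changed more than 1.5-fold (14.3%), against 28.0% of all genes tested. In 30 members every shRNA2 library was above both controls, and in 3 members every one was below, against 35.4% and 36.0% of all genes tested. Without shRNA2 replicate 2, 25 members rose and 2 fell, with a median of 0.20, beside 4346 risen and 4602 fallen of the 17237 genes then tested. The remaining shRNA2 libraries were both above the controls in 30 members and below in 4, against 38.5% and 39.1% of all genes tested, and 5 members were called and changed more than 1.5-fold (11.9%), against 25.2%. By role, this left 2 Pol I subunits, 2 nucleolar phosphoproteins, 4 t-UTP proteins and 5 large subunit factors risen, and the other roles kept their counts.

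With shRNA1, the members were divided. 8 of 42 members rose (19.0%) and 6 fell (14.3%), against 13.8% and 17.1% of all genes tested, and the median log2 fold change was 0.02 (SD of the 3 library medians 0.0163) against -0.01 for all genes tested. The shares of members called were thus near those of all genes. In 12 members every shRNA1 library was above both controls and in 13 members below both, against 26.6% and 30.2% of all genes tested. These counts were small and moved with single libraries: the number of risen members was 3 without nt-shRNA replicate 2 and 5 without shRNA1 replicate 1 or shRNA1 replicate 2, and the number of fallen members was 2 without nt-shRNA replicate 1, 3 without shRNA1 replicate 2 and 4 without shRNA1 replicate 1. Over all genes, leaving out 1 library gave 1248 to 2649 higher and 1700 to 3254 lower. The main fit gave 2407 and 2981. Scaling by library size alone turned the member counts to 18 risen and 1 fallen, while the share of all calls that were higher went from 44.7% to 70.5% and the median of all genes moved to 0.11. The same scaling moved the share of higher calls with shRNA2 from 48.7% to 58.9%, with 33 members risen and 1 fallen.

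Summed over the 42 members, the level was 11434 and 11239 CPM with nt-shRNA, 11572, 11024 and 11063 CPM with shRNA1 and 13698, 14538 and 13054 CPM with shRNA2. On the TMM scale the shRNA1 libraries lay around the controls, and all shRNA2 libraries lay above every other library. *Npm1* and *Ncl*, the most abundant members by CPM, carried a large share of the sum, and the level of *Npm1* is uncertain, since other genes hold near-identical copies of its sequence. Without these 2, the sum of the other 40 was 7224 and 7001 CPM with nt-shRNA, 7074, 6917 and 6978 CPM with shRNA1 and 8124, 8819.5 and 7957 CPM with shRNA2, with the shRNA2 libraries again above all others. Members thus took between 1.10% and 1.16% of the scaled counts in the nt-shRNA and shRNA1 libraries and between 1.31% and 1.45% in the shRNA2 libraries. These are shares of TMM-scaled counts from poly(A) RNA, not of the counts as sequenced. The TMM factors were 0.935 and 0.962 for nt-shRNA, 1.02 to 1.04 for shRNA1 and 1.00 to 1.02 for shRNA2. Without them the nt-shRNA shares would be lower and the shRNA1 shares higher. In such populations, more cells of a kind and more RNA per cell cannot be told apart.

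**Figure D1:**
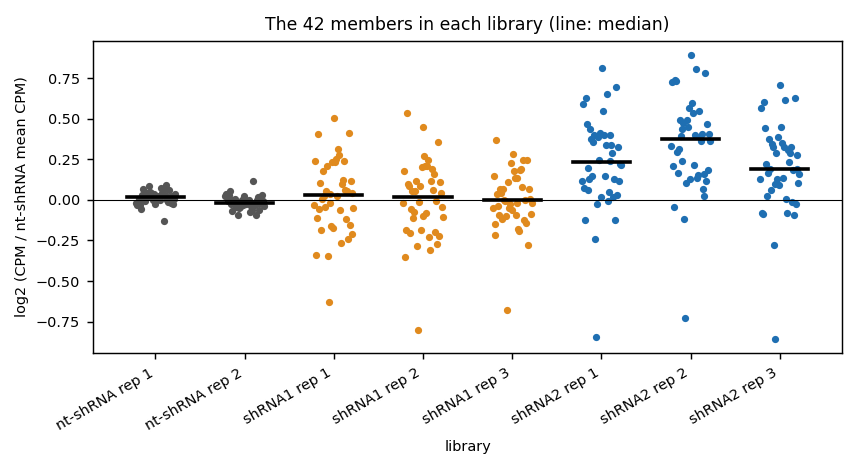
Each point is 1 of the 42 members in 1 library, plotted as the log2 ratio of its CPM to the mean of the nt-shRNA libraries, and the black line is the median of the library. The medians were 0.23, 0.37 and 0.19 in the shRNA2 libraries and between -0.00 and 0.03 in the shRNA1 libraries, and the lowest points belong to *Dkc1*.

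**Figure D2:**
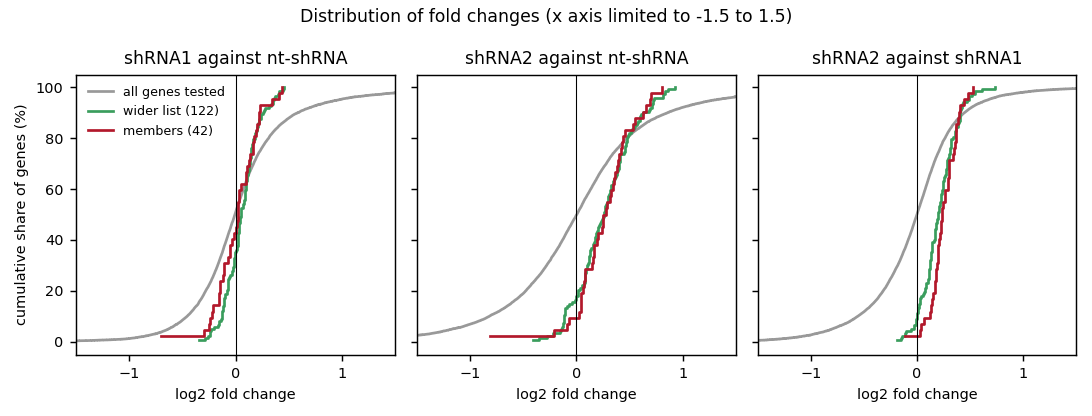
Cumulative share of genes (y axis, percent) by log2 fold change (x axis) for the 42 members, the wider list of 122 factors and all 17445 genes tested, in each comparison. The curves of the members and of the wider list lie to the right of that of all genes with shRNA2 against nt-shRNA and with shRNA2 against shRNA1 over most of their range, and cross it near the top, where all genes reach larger increases.

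The promoters of members were examined for short sequence motifs, since many members moved in the same direction with shRNA2. RefSeq promoter windows (GRCm38.p6, from 250 bases before to 50 bases after a start site) were found for 37 of the 42 members, in 46 windows. On either strand, the letters CACGTG, the E-box bound by MYC, MAX and related factors, were present for 9 of 37 members (24.3%), against 11.4% of 11943 tested genes with a window and 8.09% of all 27025 genes with a window. CCGGAAG, the core recognised by ETS factors, was present for 13 of 37 members (35.1%), against 18.3% and 9.93%. The core of NRF1 sites, GCGCA and GCGC with any base between them, was present for 7 (18.9%), against 10.3% and 5.19%, and AAGATGGC, the core of YY1 sites, for 1 (2.70%), against 4.76% and 3.19%. The motifs were counted separately, and a window could hold several of them. These are matches of letters and not measured binding.

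The 9 members with an E-box were *Rrn3*, *Nop2*, *Utp4*, *Wdr43*, *Utp20*, *Imp4*, *Ltv1*, *Pes1* and *Mybbp1a*. Of these, 8 rose with shRNA2 (median log2 fold change 0.33), while of the 28 members with a window and no E-box, 18 rose and 2 fell (median 0.24). Among all tested genes with a window, 29.6% of those with an E-box and 27.5% of those without were called higher. The members' difference rested on single libraries, since without nt-shRNA replicate 2 the counts were 5 of 9 and 14 of 28. Without nt-shRNA replicate 1 they were 7 and 14, and without shRNA2 replicate 2 they were 7 and 16. Over all tested genes with a window, the shares called higher with and without an E-box were 23.3% and 21.4% without nt-shRNA replicate 2. They were 22.5% and 20.4% without nt-shRNA replicate 1, and 27.8% and 25.5% without shRNA2 replicate 2. With shRNA1 the medians of the members with and without an E-box were 0.13 and 0.02. Sequences of 3 members whose E-box lies before the start site are shown first, followed by 3 whose E-box lies within the transcribed bases, each from 5′ to 3′ on the strand of the gene with the E-box in capitals.
Rrn3: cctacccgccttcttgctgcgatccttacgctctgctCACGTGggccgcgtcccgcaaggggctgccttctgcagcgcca
Nop2: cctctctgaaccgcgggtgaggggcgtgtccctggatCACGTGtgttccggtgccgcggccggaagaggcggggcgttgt
Imp4: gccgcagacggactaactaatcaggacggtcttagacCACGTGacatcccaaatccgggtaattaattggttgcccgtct
Utp20: ggcactaactaCACGTGaggaaaa
Utp4: gcaagcgcgCACGTGgggccgggg
Mybbp1a: ctgtcttctgagccCACGTGtttg
These stretches lie at chr16:13780614-13780693 (plus strand), chr6:125131786-125131865 (plus strand), chr1:34439671-34439750 (plus strand), chr10:88826765-88826788 (minus strand), chr8:106893646-106893669 (plus strand) and chr11:72441353-72441376 (plus strand). The first base of the E-box was at -48, -60 and -121 from the start site in *Rrn3*, *Nop2* and *Imp4*, and at 38, 16 and 41 within the transcript in *Utp20*, *Utp4* and *Mybbp1a*. The *Rrn3* window held 2 E-boxes, of which the last before the start site is shown.

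Among members with a window and no E-box, *Heatr1*, *Noc3l* and *Polr1e* had the largest increases with shRNA2, and their windows are shown with the ETS core in capitals, which reads CCGGAAG in *Heatr1* and in reverse complement CTTCCGG in *Noc3l* and *Polr1e*. *Polr1b* (0.63) and *Ubtf* (0.55), the next largest increases among these members, held no ETS core. Of the 13 members with an ETS core, *Polr1c*, *Nhp2* and *Noc2l* were not called with shRNA2, and the others rose. Of all genes tested, 27.2% were called higher. Shares called with and without an ETS core were not computed, so a link of the core to the changes was not tested. *Dkc1*, the member that fell most, held none of the 4 motifs in its window, but this was not particular to it. *Polr1a*, *Polr1b*, *Ubtf*, *Ncl*, *Nop56*, *Nop58*, *Nop10*, *Wdr75*, *Bysl* and *Rrp1b* also held none and rose with shRNA2. *Polr1d*, *Nat10*, *Nop14*, *Imp3* and *Gnl3* held none and were not called. *Rrp9*, which also fell, held an NRF1 core. The 120 bases before the *Dkc1* start site are shown without capitals.
Heatr1: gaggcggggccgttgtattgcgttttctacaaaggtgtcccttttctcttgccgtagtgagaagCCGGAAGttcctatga
Noc3l: tgaaagcgtCTTCCGGtttgggaa
Polr1e: agaatgtcaCTTCCGGtttttgag
Dkc1: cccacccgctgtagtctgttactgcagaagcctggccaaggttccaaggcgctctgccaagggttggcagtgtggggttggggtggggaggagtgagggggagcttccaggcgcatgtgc
They lie at chr13:12395295-12395374 (plus strand), chr19:38819198-38819221 (minus strand), chr4:45018625-45018648 (plus strand) and chrX:75095734-75095853 (plus strand).

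The counts by role stand beside 27.2% of all genes tested called higher and 28.7% lower with shRNA2. With shRNA1 these shares were 13.8% and 17.1%. Among the 5 Pol I subunits, 3 rose with shRNA2 (median log2 fold change 0.20), and 2 rose and 1 fell with shRNA1 (median -0.03). *Polr1b* (ENSMUSG00000027395, chr2:129100995-129126594 of GRCm38), a large catalytic subunit, was at 74.2 and 77.8 CPM in the nt-shRNA libraries, 89.7, 86.0 and 84.1 CPM with shRNA1 and 114, 126 and 113 CPM with shRNA2. The 3 groups did not overlap and were ordered nt-shRNA, shRNA1, shRNA2. *Polr1b* had log2 fold changes of 0.19 (SE 0.0664, adjusted p = 0.0381) with shRNA1 and 0.63 (SE 0.0666, adjusted p = 2.23e-07) with shRNA2. *Polr1e*, a subunit of the initiation and elongation module, showed the same order at a lower level, with 24.2 and 25.3 CPM in the nt-shRNA libraries, 32.8, 35.9 and 31.9 CPM with shRNA1 and 38.3, 41.4 and 37.5 CPM with shRNA2. It rose by 0.44 (SE 0.0827, adjusted p = 0.000542) and by 0.66 (SE 0.0826, adjusted p = 1.83e-06) on the log2 scale. *Polr1a*, the largest subunit, was at 228 and 235 CPM in the nt-shRNA libraries, 226, 229 and 224 CPM with shRNA1 and 251, 291 and 253 CPM with shRNA2. Only shRNA2 libraries stood above the controls, and the log2 fold changes were -0.03 (adjusted p = 0.741) with shRNA1 and 0.20 (SE 0.0661, adjusted p = 0.0169) with shRNA2. *Polr1d*, shared with RNA polymerase III, was the member of this class furthest against its median. It was at 83.1 and 82.2 CPM in the nt-shRNA libraries, 76.4, 72.6 and 74.4 CPM with shRNA1 and 75.9, 80.0 and 77.7 CPM with shRNA2, so that every KD library lay below both controls while neither comparison was called (adjusted p = 0.0712 and 0.25). The other subunit shared with RNA polymerase III, *Polr1c*, fell with shRNA1 by 0.30 (SE 0.0735, adjusted p = 0.00446) and was at 0.07 (adjusted p = 0.419) with shRNA2. The call of *Polr1b* with shRNA1 was lost without nt-shRNA replicate 1, nt-shRNA replicate 2, shRNA1 replicate 1 or shRNA1 replicate 2 (log2 fold changes 0.15 to 0.22), and the call of *Polr1a* with shRNA2 was lost without nt-shRNA replicate 1, nt-shRNA replicate 2 or shRNA2 replicate 2 (log2 fold changes 0.13 to 0.21). *Polr1c* was called in each of these, and lost its shRNA1 call with scaling by library size alone (log2 fold change -0.19).

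Of the factors that recruit Pol I, *Ubtf*, which binds and opens the rRNA gene, changed the most. It was at 161 and 174 CPM in the nt-shRNA libraries, 161, 179 and 172 CPM with shRNA1 and 231, 278 and 228 CPM with shRNA2. The shRNA1 libraries were mixed with the controls and the shRNA2 libraries were far above them, with log2 fold changes of 0.03 (adjusted p = 0.828) and 0.55 (SE 0.0789, adjusted p = 8.47e-06). *Rrn3*, the bridge between Pol I and its promoter factors, was at 185 and 178 CPM in the nt-shRNA libraries, 195, 193 and 177 CPM with shRNA1 and 208, 223 and 212 CPM with shRNA2. It rose by 0.24 (SE 0.0621, adjusted p = 0.00295) with shRNA2 and stood at 0.05 (adjusted p = 0.566) with shRNA1. *Tcof1*, the nucleolar phosphoprotein treacle, was at 246 and 224 CPM in the nt-shRNA libraries, 207, 204 and 220.1 CPM with shRNA1 and 245, 263 and 239 CPM with shRNA2. All its shRNA1 libraries were below both controls and its shRNA2 libraries overlapped them, and neither difference was called (-0.16 (adjusted p = 0.0705) and 0.08 (adjusted p = 0.28)). Its level with shRNA2 was higher than with shRNA1 by 0.24 (SE 0.0582, adjusted p = 0.00331). The *Rrn3* call with shRNA2 was lost without nt-shRNA replicate 2 (log2 fold change 0.21).

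The 3 nucleolar phosphoproteins rose with shRNA2 and none was called with shRNA1. They included the most abundant transcripts of the set. Nucleolin, *Ncl*, a histone and rRNA binding protein of the nucleolus, was at 1785 and 1787 CPM in the nt-shRNA libraries, 2023, 1852 and 1840.0 CPM with shRNA1 and 2418, 2516 and 2314 CPM with shRNA2. Every KD library was above both controls, but the shRNA1 difference was not called (0.09 (adjusted p = 0.287)), and with shRNA2 *Ncl* rose by 0.44 (SE 0.0645, adjusted p = 1.29e-05). Nucleophosmin, *Npm1*, a chaperone of the outer nucleolus, was at 2425 and 2451 CPM in the nt-shRNA libraries, 2474, 2255 and 2244 CPM with shRNA1 and 3156, 3202 and 2783 CPM with shRNA2. Its shRNA1 libraries lay on both sides of the controls (-0.07 (adjusted p = 0.484)) and its shRNA2 libraries were all above them (0.32 (SE 0.0704, adjusted p = 0.000723)). *Nolc1*, which binds snoRNPs and Pol I, was at 249 and 249 CPM in the nt-shRNA libraries, 249.7, 240.0 and 261 CPM with shRNA1 and 272, 310.2 and 280.0 CPM with shRNA2. It had log2 fold changes of 0.01 (adjusted p = 0.956) and 0.20 (SE 0.0653, adjusted p = 0.012). The *Nolc1* call with shRNA2 was lost without nt-shRNA replicate 1, nt-shRNA replicate 2 or shRNA2 replicate 2 (log2 fold changes 0.15 to 0.20). Sequence at least 97% identical over 100 or more bases in other annotated genes covered 53.8% of the *Npm1* transcript, so that its level is uncertain.

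**Figure D3:**
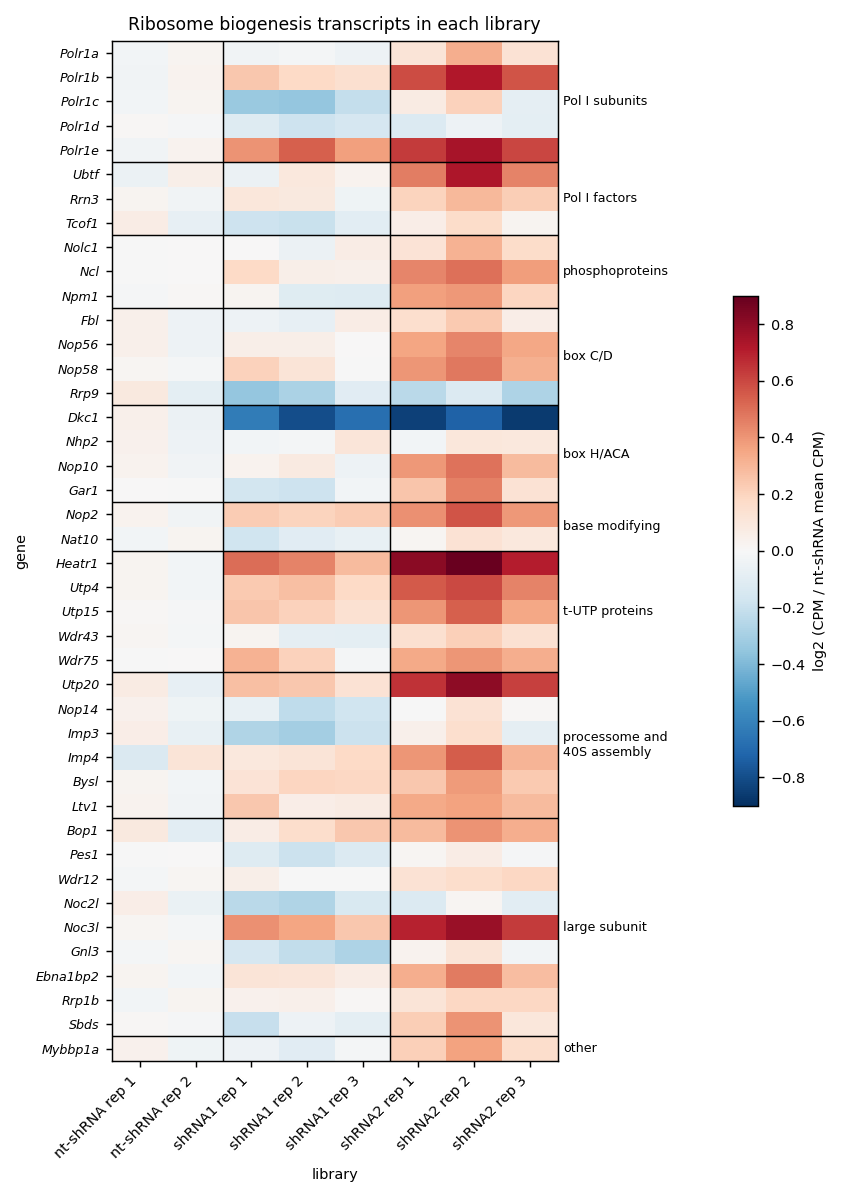
The color gives the log2 ratio of the CPM of each member (rows, grouped by role) in each library (columns) to the mean of the 2 nt-shRNA libraries. The shRNA2 columns are red for most members, and *Dkc1* is blue in all 6 KD libraries.

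Box C/D snoRNPs methylate rRNA riboses. Of their 4 proteins, 2 rose and 1 fell with shRNA2 (median log2 fold change 0.27), and with shRNA1 none rose and 1 fell (median 0.01). *Nop56* was at 391 and 368 CPM in the nt-shRNA libraries, 394, 394 and 380.2 CPM with shRNA1 and 487, 514 and 483 CPM with shRNA2. The shRNA2 libraries stood above all others, with log2 fold changes of 0.04 (adjusted p = 0.685) and 0.38 (SE 0.0599, adjusted p = 2.55e-05). *Nop58*, its partner in the core particle, was at 326 and 318 CPM in the nt-shRNA libraries, 371, 348 and 321 CPM with shRNA1 and 424, 447 and 403 CPM with shRNA2. A single shRNA1 library lay between the controls and the shRNA2 libraries were above every other library, with log2 fold changes of 0.11 (adjusted p = 0.244) and 0.40 (SE 0.068, adjusted p = 6e-05). *Fbl*, the methyltransferase fibrillarin, had log2 fold changes of -0.01 (adjusted p = 0.89) and 0.15 (adjusted p = 0.06). *Rrp9*, a protein of the U3 particle that guides rRNA cleavage, went the other way. It was at 198 and 175 CPM in the nt-shRNA libraries, 147, 153 and 174 CPM with shRNA1 and 158, 172 and 154 CPM with shRNA2. All KD libraries were below both controls and the shRNA groups overlapped, with log2 fold changes of -0.24 (SE 0.0756, adjusted p = 0.0212) and -0.21 (SE 0.0757, adjusted p = 0.0238). The *Rrp9* calls rested on single libraries, and both were also lost with scaling by library size alone. With shRNA1 the call was lost without nt-shRNA replicate 1, shRNA1 replicate 1 or shRNA1 replicate 2 (log2 fold changes -0.22 to -0.15). With shRNA2 it was lost without nt-shRNA replicate 1, shRNA2 replicate 1 or shRNA2 replicate 3 (log2 fold changes -0.19 to -0.12). Copies at least 97% identical covered 25.2% of the *Nop56* transcript, and 8.12% of its exonic bases were shared with other annotated genes.

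The box H/ACA snoRNPs, which convert uridine to pseudouridine and also stabilise telomerase RNA, held the largest decrease. *Dkc1* (ENSMUSG00000031403, chrX:75095854-75109777 of GRCm38) encodes their catalytic subunit dyskerin and was at 416 and 389 CPM in the nt-shRNA libraries, 261, 231 and 251 CPM with shRNA1 and 224, 242 and 222 CPM with shRNA2. The controls were far above all 6 KD libraries, which overlapped between the hairpins. *Dkc1* fell by 0.70 (SE 0.0649, adjusted p = 3.37e-07) on the log2 scale with shRNA1 and by 0.81 (SE 0.065, adjusted p = 6.71e-09) with shRNA2, and the hairpins did not differ detectably (-0.11 (SE 0.0593, adjusted p = 0.163)). Over the 17 alternative settings its log2 fold change ranged from -0.75 to -0.59 with shRNA1 and from -0.86 to -0.72 with shRNA2, and it was called in each. None of the 3 partners of dyskerin in the particle was called lower. *Nop10* was at 70.5 and 67.2 CPM in the nt-shRNA libraries, 70.5, 73.0 and 66.6 CPM with shRNA1 and 90.1, 96.8 and 84.0 CPM with shRNA2. Its shRNA1 libraries overlapped the controls and its shRNA2 libraries did not, with log2 fold changes of 0.02 (adjusted p = 0.835) and 0.39 (SE 0.0712, adjusted p = 0.000122). *Gar1*, which releases the modified rRNA, was at 86.3 and 86.3 CPM in the nt-shRNA libraries, 77.0, 75.8 and 84.7 CPM with shRNA1 and 102, 118 and 94.3 CPM with shRNA2. All shRNA1 libraries were below both controls and all shRNA2 libraries above, with log2 fold changes of -0.12 (adjusted p = 0.26) and 0.28 (SE 0.0803, adjusted p = 0.00587). *Nhp2* was not called in any comparison (0.03, 0.06 and 0.03). Other enzymes modify single rRNA bases. *Nop2*, a cytosine methyltransferase, was at 264 and 252 CPM in the nt-shRNA libraries, 303, 297 and 302 CPM with shRNA1 and 344, 382 and 338 CPM with shRNA2. Its groups were ordered nt-shRNA, shRNA1, shRNA2 without overlap, and it rose by 0.22 (SE 0.0633, adjusted p = 0.0127) and 0.46 (SE 0.0636, adjusted p = 6.17e-06). *Nat10*, a cytidine acetyltransferase, was at 156 and 161 CPM in the nt-shRNA libraries, 140.1, 148 and 151 CPM with shRNA1 and 160.3, 173 and 169 CPM with shRNA2. Its shRNA1 libraries were below both controls without being called (-0.11 (adjusted p = 0.17)), and with shRNA2 it was at 0.08 (adjusted p = 0.273). The *Nop2* call with shRNA1 was lost without nt-shRNA replicate 2 (log2 fold change 0.18).

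The t-UTP proteins, the first part of the small subunit processome to join the nascent rRNA precursor, rose in full with shRNA2. All 5 were called higher (median log2 fold change 0.43), and 3 were called higher with shRNA1 (median 0.20). Of all genes tested, 27.2% were called higher with shRNA2 and 13.8% with shRNA1. *Heatr1* (ENSMUSG00000050244, chr13:12395027-12440289 of GRCm38), the scaffold of the complex, had the largest increase of all members. It was at 133 and 129 CPM in the nt-shRNA libraries, 185, 178 and 159 CPM with shRNA1 and 229.7, 243 and 213 CPM with shRNA2. The groups were ordered nt-shRNA, shRNA1, shRNA2 without overlap, and *Heatr1* rose by 0.41 (SE 0.0717, adjusted p = 0.000256) and by 0.81 (SE 0.0723, adjusted p = 2.72e-08) on the log2 scale. *Utp4* was at 199.9 and 193 CPM in the nt-shRNA libraries, 231, 237 and 222 CPM with shRNA1 and 287, 297 and 268 CPM with shRNA2. It showed the same order, with log2 fold changes of 0.23 (SE 0.0619, adjusted p = 0.00863) and 0.53 (SE 0.0622, adjusted p = 7.49e-07). *Utp15* was at 74.3 and 73.6 CPM in the nt-shRNA libraries, 88.0, 85.3 and 81.3 CPM with shRNA1 and 97.5, 107 and 94.4 CPM with shRNA2. It too rose in both comparisons (0.20 (SE 0.0683, adjusted p = 0.0336) and 0.43 (SE 0.0684, adjusted p = 2.8e-05)). *Wdr43*, the member of the class that changed least, was at 245 and 239 CPM in the nt-shRNA libraries, 246, 229 and 227 CPM with shRNA1 and 268, 281 and 266 CPM with shRNA2. Its shRNA1 libraries overlapped the controls (-0.05 (adjusted p = 0.573)) and its shRNA2 libraries were above them (0.17 (SE 0.0599, adjusted p = 0.0241)). *Wdr75* rose with shRNA2 (0.36 (adjusted p = 0.000598)) and was not called with shRNA1 (0.17 (adjusted p = 0.0886)). With shRNA1 the call of *Utp4* was lost without nt-shRNA replicate 2 (log2 fold change 0.20) and that of *Utp15* without nt-shRNA replicate 1, nt-shRNA replicate 2, shRNA1 replicate 1 or shRNA1 replicate 2 (log2 fold changes 0.17 to 0.21). With shRNA2 the call of *Wdr43* was lost without nt-shRNA replicate 1, nt-shRNA replicate 2 or shRNA2 replicate 2 (log2 fold changes 0.14 to 0.18).

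**Figure D4:**
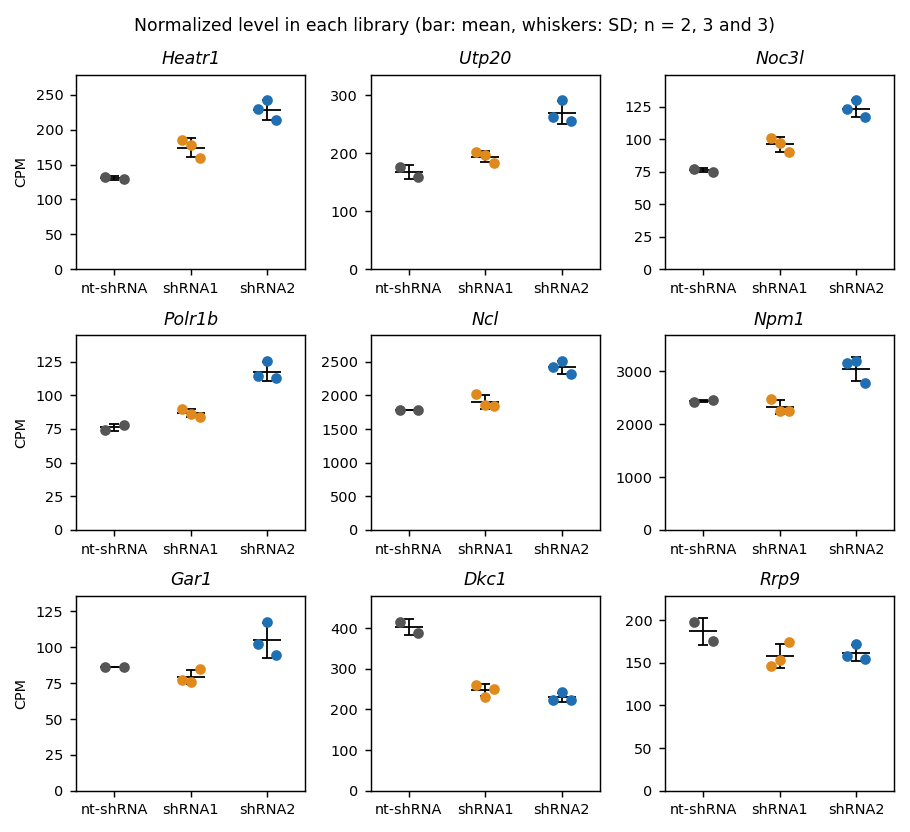
CPM of 9 members in each library (points), with the group mean (bar) and SD (whiskers) for 2 nt-shRNA, 3 shRNA1 and 3 shRNA2 libraries, on axes that start at 0. *Heatr1*, *Utp20*, *Noc3l* and *Polr1b* step up from nt-shRNA to shRNA1 to shRNA2, *Gar1* lies below the controls with shRNA1 and above them with shRNA2, and *Dkc1* lies below the controls with both.

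Of the 6 other factors of the small subunit, 4 rose with shRNA2 (median log2 fold change 0.31), and with shRNA1 1 rose and 1 fell (median 0.13). *Utp20* (ENSMUSG00000004356, chr10:88746607-88826804 of GRCm38), a large scaffold protein of the processome with 62 exons in its longest coding transcript, was at 175 and 158 CPM in the nt-shRNA libraries, 202, 197 and 183 CPM with shRNA1 and 262, 292 and 255 CPM with shRNA2. Its groups did not overlap and were ordered nt-shRNA, shRNA1, shRNA2, with log2 fold changes of 0.22 (SE 0.0707, adjusted p = 0.0254) and 0.69 (SE 0.0714, adjusted p = 1.55e-07). *Imp4*, which binds U3 RNA, was at 60.8 and 72.0 CPM in the nt-shRNA libraries, 71.0, 72.1 and 75.3 CPM with shRNA1 and 87.6, 97 and 82.2 CPM with shRNA2. Its shRNA1 libraries overlapped the controls and its shRNA2 libraries were above all others, with log2 fold changes of 0.13 (adjusted p = 0.22) and 0.42 (SE 0.0804, adjusted p = 0.000196). *Ltv1*, an assembly factor of the 40S precursor, was at 103 and 99.3 CPM in the nt-shRNA libraries, 119.8, 106 and 107 CPM with shRNA1 and 128, 130.1 and 123 CPM with shRNA2. Every KD library was above both controls, and *Ltv1* was called with shRNA2 (0.33 (SE 0.0659, adjusted p = 0.000319)) and not with shRNA1 (0.13 (adjusted p = 0.146)). *Imp3*, the partner of *Imp4* and the only member with a single exon, was at 44.4 and 40.7 CPM in the nt-shRNA libraries, 35.3, 34.4 and 37.2 CPM with shRNA1 and 43.9, 47.3 and 40.2 CPM with shRNA2. It fell with shRNA1 by 0.25 (SE 0.0809, adjusted p = 0.0224), and with shRNA2 its libraries overlapped the controls (0.04 (adjusted p = 0.67)). *Bysl*, which acts late in 40S maturation, rose with shRNA2 (0.29 (adjusted p = 0.00102)) and was at 0.17 (adjusted p = 0.0622) with shRNA1. *Nop14* was called in neither comparison (-0.16 (adjusted p = 0.0785) and 0.05 (adjusted p = 0.574)). With shRNA1 the call of *Utp20* was lost without nt-shRNA replicate 2, shRNA1 replicate 1 or shRNA1 replicate 2 (log2 fold changes 0.14 to 0.20) and that of *Imp3* without nt-shRNA replicate 1, shRNA1 replicate 1 or shRNA1 replicate 2 (log2 fold changes -0.25 to -0.19). The *Imp3* call was also lost with scaling by library size alone.

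Of the 9 large subunit factors, 6 rose and none fell with shRNA2 (median log2 fold change 0.16), and 1 rose and 2 fell with shRNA1 (median 0.02). *Noc3l* (ENSMUSG00000024999, chr19:38788128-38819237 of GRCm38), which acts on early large subunit precursors, was at 77.0 and 74.8 CPM in the nt-shRNA libraries, 101, 97.1 and 89.9 CPM with shRNA1 and 123, 130.2 and 117 CPM with shRNA2. It stepped up from nt-shRNA to shRNA1 to shRNA2 without overlap, by 0.34 (SE 0.068, adjusted p = 0.000915) and 0.70 (SE 0.0683, adjusted p = 7.59e-08) relative to nt-shRNA. *Ebna1bp2*, an early assembly factor, was at 124 and 119.8 CPM in the nt-shRNA libraries, 132, 131 and 128 CPM with shRNA1 and 152, 169 and 147 CPM with shRNA2. Every KD library was above both controls, and the difference was called with shRNA2 (0.36 (SE 0.0648, adjusted p = 0.00011)) and not with shRNA1 (0.10 (adjusted p = 0.273)). *Bop1*, *Pes1* and *Wdr12* form the PeBoW complex, which is needed for maturation of the large rRNAs. *Bop1* was at 80.0 and 70.3 CPM in the nt-shRNA libraries, 78.6, 84.0 and 89.2 CPM with shRNA1 and 91.7, 99.7 and 94.4 CPM with shRNA2. Its shRNA2 libraries were above all others (0.34 (SE 0.0733, adjusted p = 0.000596)) and its shRNA1 libraries overlapped the controls (0.16 (adjusted p = 0.105)). *Wdr12* rose by 0.16 (adjusted p = 0.0358) with shRNA2, whereas *Pes1* was called with neither hairpin (-0.14 (adjusted p = 0.0634) and 0.03 (adjusted p = 0.731)). *Noc2l*, which forms a complex with NOC3L and also acts as a histone acetyltransferase inhibitor, was at 290.0 and 267 CPM in the nt-shRNA libraries, 235, 231 and 253 CPM with shRNA1 and 255, 283 and 261 CPM with shRNA2. It fell with shRNA1 by 0.22 (SE 0.065, adjusted p = 0.0161) and overlapped the controls with shRNA2 (-0.06 (adjusted p = 0.414)). *Gnl3*, the GTPase nucleostemin, likewise fell with shRNA1 (-0.22 (adjusted p = 0.011)) and not with shRNA2 (0.04 (adjusted p = 0.589)). *Rrp1b* and *Sbds*, which acts in the last step before the large subunit can join translation, rose with shRNA2 (0.16 (adjusted p = 0.022) and 0.25 (adjusted p = 0.014)), and neither was called with shRNA1 (0.03 and -0.11). With shRNA1 the call of *Noc2l* was lost without nt-shRNA replicate 1, shRNA1 replicate 1 or shRNA1 replicate 2 (log2 fold changes -0.20 to -0.16) and that of *Gnl3* without nt-shRNA replicate 1 or nt-shRNA replicate 2 (log2 fold changes -0.23 to -0.20). Both of these calls were also lost with scaling by library size alone. With shRNA2 the call of *Wdr12* was lost without nt-shRNA replicate 1, nt-shRNA replicate 2, shRNA1 replicate 2, shRNA2 replicate 1 or shRNA2 replicate 3 (log2 fold changes 0.14 to 0.18), that of *Rrp1b* without nt-shRNA replicate 1 or nt-shRNA replicate 2 (log2 fold changes 0.13 to 0.19) and that of *Sbds* without nt-shRNA replicate 1, nt-shRNA replicate 2 or shRNA2 replicate 2 (log2 fold changes 0.17 to 0.25). *Noc2l* shared 14.4% of its exonic bases with an antisense gene, and the counting of the authors shows no strand setting.

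*Mybbp1a*, a nucleolar protein that binds MYB and takes part in the p53 response to nucleolar stress, was the remaining member. It was at 785 and 745 CPM in the nt-shRNA libraries, 739.5, 712 and 756 CPM with shRNA1 and 887, 982 and 854 CPM with shRNA2. Its shRNA1 libraries overlapped the controls and its shRNA2 libraries were above all others, with log2 fold changes of -0.06 (adjusted p = 0.553) and 0.25 (SE 0.0667, adjusted p = 0.00395). The call with shRNA2 was lost without nt-shRNA replicate 2 (log2 fold change 0.21).

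**Figure D5:**
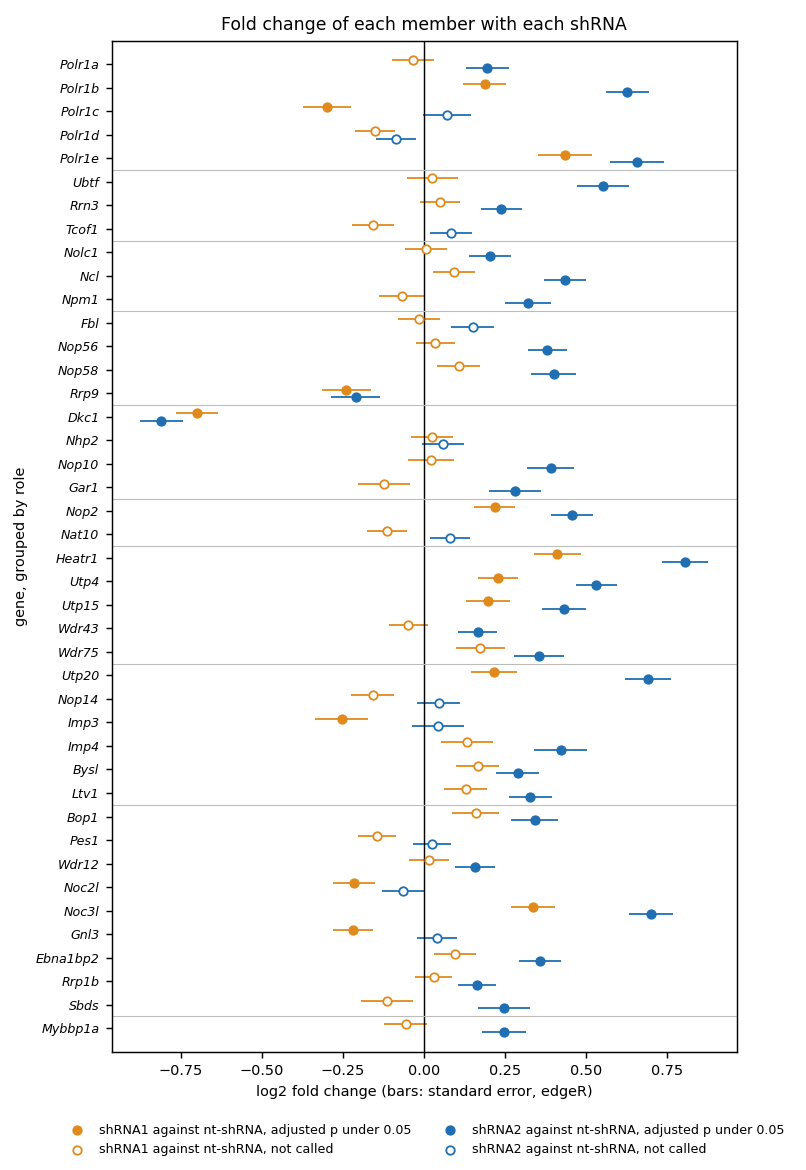
Log2 fold change of each member against nt-shRNA with its standard error, for shRNA1 and shRNA2, from edgeR. Filled points had an adjusted p under 0.05. The shRNA2 points lie to the right of the shRNA1 points in 41 of 42 members, the exception being *Dkc1*.

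The hairpins were also compared directly, in a test that does not use the level of the controls, whose libraries enter only the scaling and the estimate of the spread. *Eftud2* itself was not called between the hairpins in edgeR (-0.11 (SE 0.0613, adjusted p = 0.164)). Whether the differences between the hairpins followed its level was not tested, and dose and hairpin cannot be told apart. With shRNA2, 34 of 42 members (81.0%) were higher than with shRNA1 and 0 were lower, where 16.9% of all genes tested were called higher and 18.7% lower. At an unadjusted p under 0.05, 38 members were higher and 0 lower in edgeR, beside 3803 higher and 4017 lower of all 17445 genes. DESeq2 called 35 members higher and 0 lower, beside 2542 and 2845 of all genes. The median log2 fold change was 0.24 (SD of the 3 library medians 0.0856) against -0.00 for all genes tested, and 41 members were above 0. In 37 members every shRNA2 library was above every shRNA1 library and in 0 below, against 23.6% and 24.1% of all genes tested. The largest differences were in *Ubtf* (0.53 (SE 0.07, adjusted p = 2.06e-05)), *Utp20* (0.48 (SE 0.0628, adjusted p = 1.95e-05)), *Polr1b* (0.44 (SE 0.0589, adjusted p = 2.14e-05)), *Gar1* (0.40 (SE 0.0722, adjusted p = 0.000306)) and *Heatr1* (0.39 (SE 0.0632, adjusted p = 0.000123)). Without shRNA2 replicate 2, 26 members were called higher and 0 lower, with a median of 0.19, beside 1988 higher and 2318 lower of the 17237 genes then tested. The groups then did not overlap in 37 members with shRNA2 higher and 1 with it lower, against 26.3% and 26.2% of all genes tested.

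The 8 members without a call between the hairpins were *Dkc1*, *Rrp9*, *Noc2l*, *Bysl*, *Wdr12*, *Rrp1b*, *Nhp2* and *Polr1d*. In the direct comparison, calls were lost with 1 library left out for *Polr1e* without shRNA1 replicate 1, shRNA1 replicate 3, shRNA2 replicate 1 or shRNA2 replicate 2 (log2 fold changes 0.18 to 0.23), *Rrn3* without shRNA2 replicate 2 (log2 fold change 0.16), *Nolc1* without shRNA1 replicate 2 or shRNA2 replicate 2 (log2 fold changes 0.14 to 0.17), *Fbl* without shRNA1 replicate 1, shRNA1 replicate 2, shRNA2 replicate 1 or shRNA2 replicate 2 (log2 fold changes 0.12 to 0.17), *Nop14* without shRNA1 replicate 2 or shRNA2 replicate 2 (log2 fold changes 0.16 to 0.17) and *Pes1* without shRNA1 replicate 2 or shRNA2 replicate 2 (log2 fold change 0.15). The same held for *Wdr75* without nt-shRNA replicate 1, nt-shRNA replicate 2, shRNA1 replicate 2, shRNA1 replicate 3, shRNA2 replicate 1 or shRNA2 replicate 2 (log2 fold changes 0.09 to 0.20), *Ltv1* without shRNA1 replicate 2 (log2 fold change 0.17) and *Bop1* without shRNA1 replicate 1, shRNA1 replicate 2 or shRNA2 replicate 2 (log2 fold changes 0.14 to 0.18).

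The other factors of the pathway were described from a wider list written from general knowledge, of which 122 genes were in the table and all 122 passed the filter. Like the members, the list was chosen with earlier results of these data known, so it is no independent support. With shRNA2, 75 of 122 (61.5%) rose and 5 fell (4.10%), against 27.2% and 28.7% of all genes tested, and their median log2 fold change was 0.26. With shRNA1, 22 rose (18.0%) and 8 fell (6.56%), against 13.8% and 17.1% (median 0.05). In the direct comparison 73 were higher (59.8%) and 3 lower (2.46%) with shRNA2, against 16.9% and 18.7% (median 0.20). By role, 32 of 47 other small subunit factors rose with shRNA2 and none fell, 6 of 9 Pol I subunits and factors rose and none fell, 4 of 9 snoRNP assembly factors rose and none fell, and 33 of 57 large subunit factors rose and 5 fell. *Ddx21*, an RNA helicase that binds rRNA genes, was at 404 and 374 CPM in the nt-shRNA libraries, 547, 507 and 494 CPM with shRNA1 and 628, 661 and 636 CPM with shRNA2. *Wdr46*, a processome protein, was at 38.8 and 38.6 CPM in the nt-shRNA libraries, 50.1, 51.2 and 51.7 CPM with shRNA1 and 66.0, 73.3 and 64.6 CPM with shRNA2. *Nifk*, which binds the Ki-67 protein, was at 65.3 and 70.3 CPM in the nt-shRNA libraries, 91.1, 86.2 and 81.5 CPM with shRNA1 and 120.3, 138 and 112 CPM with shRNA2. In these 3 genes the groups were ordered nt-shRNA, shRNA1, shRNA2 without overlap, and the log2 fold changes with shRNA2 were 0.72 (adjusted p = 2.69e-08), 0.81 (adjusted p = 2.76e-08) and 0.86 (adjusted p = 5.15e-08). The 3 genes that fell with the smallest adjusted p were all large subunit factors. *Nsa2* was at 199.8 and 192 CPM in the nt-shRNA libraries, 162, 159 and 159 CPM with shRNA1 and 149, 142 and 153 CPM with shRNA2. *Gnl3l*, a relative of nucleostemin, was at 188 and 185 CPM in the nt-shRNA libraries, 177, 160.5 and 163 CPM with shRNA1 and 147, 143 and 149.5 CPM with shRNA2. *Nvl*, an ATPase, was at 162 and 170.3 CPM in the nt-shRNA libraries, 149.6, 160.0 and 147 CPM with shRNA1 and 137, 131 and 142 CPM with shRNA2. In all 3, every KD library was below both controls, and the log2 fold changes with shRNA2 were -0.41 (adjusted p = 8.88e-06), -0.35 (adjusted p = 6.7e-05) and -0.28 (adjusted p = 0.000802). Without shRNA2 replicate 2, 69 rose and 7 fell with shRNA2 (median 0.22), beside 4346 and 4602 of all 17237 genes then tested, and the risen ones were 30 small subunit factors, 6 Pol I subunits and factors, 3 snoRNP assembly factors and 30 large subunit factors. The counts that fell moved with single libraries, from 3 to 7 with shRNA2 and from 0 to 3 in the direct comparison, and with shRNA1 from 10 to 26 risen and from 3 to 10 fallen.

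Levels of different members were compared per length, as CPM per kilobase of the annotated exons (RPKM). In the nt-shRNA libraries the mean was highest for *Npm1* (915 RPKM), followed by *Ncl* (175), *Nhp2* (139) and *Mybbp1a* (132), and lowest for *Wdr12* (6.29), *Polr1e* (6.35) and *Imp4* (7.76). The deposited length is the union of all exons, which reaches 11955 bases for *Wdr12* and 8553 for *Imp4* and lowers their level on this scale. The proteins of the H/ACA core are present together in each particle. *Dkc1* went from 97.6 RPKM with nt-shRNA to 60.0 with shRNA1 and 55.7 with shRNA2, while *Nhp2* was at 139, 141 and 145, *Nop10* at 62.1, 63.2 and 81.4, and *Gar1* at 50.4, 46.2 and 61.2. By group mean, *Dkc1* was thus above *Nop10* and *Gar1* on this scale with nt-shRNA and below *Nop10* with both hairpins. With shRNA1 the means of *Dkc1* and *Nop10* were close, and not every library kept that order. Among the Pol I subunits, *Polr1c* and *Polr1d*, shared with RNA polymerase III, were at 71.8 and 27.2 RPKM with nt-shRNA, above *Polr1a* (19.5), *Polr1b* (13.1) and *Polr1e* (6.35).

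The members are protein-coding genes with between 1 and 62 exons in their longest coding transcript (median 15). Spearman's rho between exonic length and log2 fold change over the 42 members was 0.27 with shRNA1, 0.25 with shRNA2 and 0.04 between the hairpins, against 0.15, 0.11 and 0.04 over 14372 tested protein-coding genes, which are values across genes from the same libraries. For the number of exons it was 0.19, 0.18 and 0.07 against -0.01, -0.07 and -0.09. Among the members, 6 hold 19 annotated small nucleolar RNA genes on their own strand, with 5 in *Nop56*, 4 in *Nop58*, 3 each in *Ncl*, *Wdr43* and *Gnl3*, and 1 in *Dkc1*. These had between 0 and 22 counts per library. The 10 that were at 0 in all libraries share bases with annotated exons of a member, and the 9 with counts do not. Exonic bases were shared with another annotated gene in 19 members, in 17 of them with an antisense gene, and the share exceeded 5% in *Noc2l* (14.4%), *Bysl* (9.37%), *Nop56* (8.12%) and *Nop14* (5.27%). Apart from *Npm1* and *Nop56*, sequence at least 97% identical in other annotated genes covered 28.4% of the *Polr1d*, 20.8% of the *Noc2l* and 15.7% of the *Wdr12* transcript, so that the levels of these are uncertain.

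Markers of other cell types moved with the hairpins. Of 9 markers of two-cell-like cells, a rare state of mESC cultures, 8 were in the table and 7 were tested. All 7 rose with shRNA1 and with shRNA2, and 5 were lower with shRNA2 than with shRNA1. Their summed level was 20.1 to 25.1 CPM in nt-shRNA, 93.9 to 127 CPM in shRNA1 and 92.1 to 114 CPM in shRNA2 libraries. Sums were lower in the order nt-shRNA, shRNA1, shRNA2 for 6 trophectoderm markers (152 to 165, 116 to 134 and 98.6 to 107 CPM) and 5 neural ectoderm markers (68.1 to 68.4, 50.4 to 58.3 and 38.0 to 40.6 CPM), and higher in that order for 4 primed epiblast markers (81.8 to 92.0, 99.1 to 109 and 119 to 126 CPM). Of these lists, 2 of 5 tested trophectoderm, 1 of 5 neural and 1 of 3 primed epiblast markers were called lower with shRNA2, and 0, 1 and 1 higher. The primed epiblast sum followed *Dnmt3b*, at 40.4 and 36.7 CPM with nt-shRNA and 95.5, 98.9 and 81.4 CPM with shRNA2. *Otx2* went from 39.5 and 53.6 to 29.5, 24.4 and 36.2 CPM. The neural sum followed *Nes* (58.3 and 59.5 to 23.3, 19.3 and 25.3 CPM). *Neurod1* went from 0.26 and 0.07 to 7.1, 12.5 and 6.6 CPM. The sums were 44.5 to 46.0, 42.6 to 48.8 and 35.8 to 41.6 CPM for 7 primitive endoderm markers, 21.4 to 24.7, 21.4 to 23.4 and 20.2 to 26.7 CPM for 5 mesoderm markers, and 4.60 to 4.99, 6.47 to 7.34 and 6.28 to 7.57 CPM for 6 fibroblast markers. No listed marker in the table was at 0 in all libraries. Their part in the levels of the ribosome biogenesis transcripts was not tested.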

How the data were processed

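Poly(A)-selected RNA of 8 libraries was sequenced by the authors as paired-end reads, aligned with STAR to mm10 (GRCm38) and counted over exons with featureCounts 1.6.2 on GENCODE M24, per the file header, which shows no option for strand or for reads with several alignments. The deposited values are raw fragment counts per gene. The deposited table also gives the summed exon length, used for RPKM and length offsets, and had 0 per-sample columns that were not used. Symbols came from GENCODE M21 by Ensembl identifier (55144 of 55385 genes), and promoters from RefSeq (GRCm38.p6), with windows for 37 of 42 members.

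Tests were run in edgeR 4.0.16 (R 4.3.3). Genes passing filterByExpr (minimum count 10) were scaled by TMM and tested with glmQLFit and glmQLFTest over all 8 libraries, 1 coefficient for each group, without a block. Benjamini-Hochberg adjustment covered all 17445 genes, and genes with an adjusted p under 0.05 were called. The authors used DESeq2. Standard errors (SE) came from the F statistic. Depth was 19569525 to 29871048 counts, and intervals cover the spread between libraries only. Libraries of a group differed by a chi-square of 3.00 to 11.6 per gene, so no library repeated another. The code was tested on simulated data.

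The members and lists were chosen with earlier results of these data known. All members are named. Values in every library are given, within each role, for the 3 members with the smallest adjusted p with shRNA2 and the member furthest against the median of its role. Of the wider list (128 symbols written, 122 matched), the 3 genes with the smallest adjusted p in each direction are named. Alternatives were DESeq2 1.42.0, its size factors, each library left out, a replicate block, offsets for gene length with and without it, scaling by library size alone, fits of only the compared groups, and filters of none or of 10 counts in all libraries. Identical sequence in other transcripts was searched with blastn 2.17.0. Motif searches used Python 3.11.15 with pandas 2.3.3, and figures matplotlib 3.10.9. Splicing was not analysed here.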

Additional observations from a re-analysis of the deposited data

Results flagged for a closer look

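In *Gar1* and *Sbds*, every shRNA1 library lay below both nt-shRNA libraries and every shRNA2 library above both, so that the hairpins lay on opposite sides of the controls. This held with TMM scaling, whereas with library size alone the log2 fold changes with shRNA1 were near 0 (0.00075 for *Sbds*). The pattern was seen in 2 of 42 members (4.76%) and in 158 of all genes tested (0.906%). The log2 difference between shRNA2 and shRNA1 was 0.40 for *Gar1* and 0.36 for *Sbds*, given as a description since the genes were picked by this pattern. *Sbds* was at 63.0 and 62.4 CPM in the nt-shRNA libraries, 54.2, 60.7 and 58.9 CPM with shRNA1 and 72.9, 83.1 and 67.3 CPM with shRNA2. Neither gene was called with shRNA1 against nt-shRNA (-0.12 (adjusted p = 0.26) for *Gar1* and -0.11 (adjusted p = 0.306) for *Sbds*), and both were called with shRNA2 (0.28 (adjusted p = 0.00587) and 0.25 (adjusted p = 0.014)). The call of *Sbds* with shRNA2 against nt-shRNA was lost without nt-shRNA replicate 1, nt-shRNA replicate 2 or shRNA2 replicate 2 (log2 fold changes 0.17 to 0.25).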

How the results depend on the processing

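Under the 17 alternatives, between 21 and 33 of 42 members rose with shRNA2, with a median log2 fold change of 0.20 to 0.35, and between 26 and 37 were higher and 0 lower than with shRNA1. Of all genes, between 3610 and 5850 rose with shRNA2 and between 1988 and 3265 were higher than with shRNA1, so the numbers of calls moved for all genes too. Of the calls, 22 of 31 with shRNA2, 25 of 34 in the direct comparison and 4 of 14 with shRNA1 held in all alternatives, the last being *Polr1e*, *Heatr1*, *Noc3l* and *Dkc1*. The shRNA1 counts depended most on the processing, and the cause was not tested.

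With library size alone, the shRNA1 comparison had 18 members higher and 1 lower (median 0.14), 55 of the wider list higher and 2 lower (median 0.16) and 4101 of all genes higher and 1713 lower. The shRNA2 comparison then had 1 member lower, and 3 of the wider list lower (median 0.35). The median of the members with shRNA1 was 0.055 with at least 10 counts in every library and 0.046 in a fit of only the groups compared. With gene length offsets, 1 member fell with shRNA2. Each library left out in turn gave 3 to 9 members higher and 2 to 8 lower with shRNA1 (median -0.0012 to 0.030), 1 to 2 members lower with shRNA2, 10 to 26 of the wider list higher and 3 to 10 lower with shRNA1, 3 to 7 lower with shRNA2 and 0 to 3 lower in the direct comparison, and 1248 to 2649 of all genes higher and 1700 to 3254 lower with shRNA1.

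Same-numbered libraries were not treated as pairs: the correlations of their deviations from the group means were 0.022, 0.057 and 0.074 between shRNA1 and shRNA2 and -0.026 to 0.011 with nt-shRNA. The deviations of the 2 nt-shRNA libraries are opposites of each other, so the values with nt-shRNA say little about pairing. With the replicate number as a block, 9 members rose and 6 fell with shRNA1 (median 0.02), 29 rose and 2 fell with shRNA2 (median 0.28), and 36 were higher and 0 lower in the direct comparison (median 0.23). Of all genes, 2694 rose and 3324 fell with shRNA1, 4898 rose and 5136 fell with shRNA2, and 3116 were higher and 3402 lower in the direct comparison. Not every library correlated best with its own number, the exceptions among shRNA1 and shRNA2 being shRNA1 replicate 1 (0.026 with nt-shRNA replicate 2) and shRNA2 replicate 1 (0.028 with shRNA1 replicate 2). With gene length offsets and the block together, 34 of the wider list rose with shRNA1 (median 0.085).

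Changes of sign were limited to values near 0 that were not called in the main analysis. With library size alone the shRNA1 log2 fold changes were 0.081 for *Polr1a*, 0.045 for *Npm1*, 0.10 for *Fbl*, 0.00071 for *Nat10*, 0.066 for *Wdr43*, 0.00075 for *Sbds* and 0.058 for *Mybbp1a*, and those with shRNA2 0.0036 for *Polr1d* and 0.025 for *Noc2l*. With shRNA1, *Nolc1* was at -0.00026 and *Nhp2* at -0.0068 with the block. *Npm1* was at 0.016, *Fbl* at 0.0062, *Wdr12* at -0.060 and *Rrp1b* at -0.0032 with length offsets and the block, and *Fbl* at 0.0023, *Wdr12* at -0.054 and *Rrp1b* at -0.0032 with length offsets. *Fbl* was at 0.015 with at least 10 counts in every library and at 0.0068 with only the groups compared. Leaving out each library gave, with shRNA1, -0.026 to 0.081 for *Ubtf*, -0.025 to 0.036 for *Nolc1*, -0.059 to 0.030 for *Fbl*, -0.0081 to 0.081 for *Nop56*, -0.018 to 0.069 for *Nhp2*, -0.012 to 0.060 for *Nop10* and -0.0028 to 0.029 for *Wdr12*, with shRNA2 -0.024 to 0.10 for *Imp3*, and in the direct comparison -0.023 to 0.10 for *Rrp9*.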
